A study of Mus musculus with 6 samples.

Results

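Tcfl5 and Bhlhe23, 2 genes of basic helix-loop-helix (bHLH) transcription factors, lie 134 kb apart, start to start, near the end of mouse chromosome 2, with Dido1, Gid8 and Slc17a9 between them and Ogfr and Col9a3 before them. These 7 genes, of 48795 gene identifiers counted, are described here in the hippocampus of mice in which the genes of the histone demethylases KDM1A and KDM5C were deleted in adulthood. Tcfl5 and Bhlhe23 were chosen because they were much higher in the knockout, and the other 5 because they surround them. All 7 passed the filter on low counts that left 16861 genes to test. Since the choice used the comparison of knockout with wild type, the differences of the 7 genes are given as a description, with no p-value, and calls among them are counted only to set them beside the share over all genes.

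Polyadenylated RNA was sequenced from 3 hippocampal libraries labelled WT and 3 labelled ifKO, called KO here. The KO combined floxed Kdm1a and floxed Kdm5c alleles with CamKIIα-CreERT2, a recombinase that is active only after tamoxifen and is limited to principal neurons of the forebrain. Both groups received tamoxifen, at an age of 2 to 3 months per the series' design, on a C57BL/6J background. Whether WT mice carried floxed alleles or the recombinase is not given in the sources used here, nor is it said that libraries came from separate animals, and a p-value therefore reflects the spread of these libraries alone, which may be technical. Total gene counts ran from 19309576 to 19700249 per library. Kdm1a fell from 73.7 ± 3.95 to 38.6 ± 1.29 CPM, the count scaled to library size (mean ± SD, n = 3 each, adjusted p = 4.32e-07 in edgeR's quasi-likelihood test), while Kdm5c measured 79.5 ± 2.97 and 70.6 ± 4.67 CPM (adjusted p = 0.143 in the same test). No library lacked only 1 of the enzymes. In whole tissue a change in the number of cells of a type and a change in RNA per cell cannot be told apart.

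The bHLH factors bind DNA as dimers at short sequences called E-boxes, and many are made in a single lineage. TCFL5 belongs to the testis, where it acts in spermatocytes and spermatids of the mouse. BHLHE23 acts in the retina, where mouse rod bipolar cells need it to mature and survive. KDM1A and KDM5C both take methyl groups off lysine 4 of histone H3, a residue that is methylated at active promoters, and DIDO1, made from the gene next to Tcfl5, carries a finger domain that reads that mark. The remaining neighbours serve unrelated tasks. Ogfr encodes the receptor of an opioid peptide that slows cell growth, Col9a3 a chain of the cartilage collagen type IX, Gid8 a subunit of a ubiquitin ligase and Slc17a9 the transporter that fills vesicles with ATP.

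The 7 genes span 188 kb, from base 180589245 to base 180776900 of chromosome 2 on GRCm38. Tcfl5 (ENSMUSG00000038932) occupies 180621956 to 180642708 and Bhlhe23 (ENSMUSG00000045493) 180774381 to 180776900, both on the minus strand. Dido1 (ENSMUSG00000038914), from 180657964 to 180709999, is also on the minus strand. On the plus strand are Ogfr (ENSMUSG00000049401) from 180589245 to 180595836, Col9a3 (ENSMUSG00000027570) from 180597790 to 180622189, Gid8 (ENSMUSG00000027573) from 180710117 to 180718733 and Slc17a9 (ENSMUSG00000023393) from 180725263 to 180742280. Col9a3 runs toward Tcfl5 on the plus strand, and the annotated ends of the pair overlap by 234 bases, all exonic in both, which is 7.39% of the exonic bases of Tcfl5 and 6.07% of those of Col9a3. Because the strand setting of the counting is not given, reads from that stretch cannot be assigned. Dido1 and Gid8 point away from each other, and their starts are 118 bases apart. Bhlhe23 stands more alone, with 32.1 kb between it and Slc17a9. It shares 144 exonic bases, 5.71% of its own, with the noncoding gene Gm14343 on the same strand.

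The promoters of both bHLH genes and the promoter that serves Dido1 and Gid8 are shown to set the start regions of the nearly silent pair beside that of neighbours with reads in every library. Each is the 250 bases before the gene start as given by RefSeq on GRCm38.p6, written 5′ to 3′ on the strand of the gene, with CpG dinucleotides in capitals. The first is Tcfl5, minus strand, chr2:180642692-180642941. The second is Bhlhe23, minus strand, chr2:180776901-180777150. The third is Gid8, plus strand, chr2:180709976-180710225, which also contains the start of Dido1. The starts given by GENCODE for Tcfl5 (180642708) and Gid8 (180710117) differ from those of RefSeq and lie inside these stretches. Part of each of these stretches is therefore within the gene as placed above.
Tcfl5: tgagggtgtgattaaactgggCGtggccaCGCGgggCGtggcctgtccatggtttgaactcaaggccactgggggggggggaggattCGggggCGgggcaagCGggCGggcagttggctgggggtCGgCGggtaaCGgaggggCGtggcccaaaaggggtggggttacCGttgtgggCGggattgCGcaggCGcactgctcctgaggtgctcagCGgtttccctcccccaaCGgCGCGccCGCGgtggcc
Bhlhe23: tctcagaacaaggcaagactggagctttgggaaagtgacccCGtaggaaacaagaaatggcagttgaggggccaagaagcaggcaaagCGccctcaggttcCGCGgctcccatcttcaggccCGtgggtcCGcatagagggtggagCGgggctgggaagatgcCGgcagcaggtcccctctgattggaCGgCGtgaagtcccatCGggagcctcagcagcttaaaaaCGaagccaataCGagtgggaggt
Gid8: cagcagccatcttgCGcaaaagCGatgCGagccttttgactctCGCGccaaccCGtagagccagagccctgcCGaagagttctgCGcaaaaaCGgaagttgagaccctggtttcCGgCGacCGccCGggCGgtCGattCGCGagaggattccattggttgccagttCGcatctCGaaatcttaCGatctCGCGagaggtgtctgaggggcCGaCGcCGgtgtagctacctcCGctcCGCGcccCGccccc

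All 3 promoters held more CpG than the median start window, Bhlhe23 the fewest of them. Over the 300 bases from 250 before to 50 after the start, Tcfl5 had 35 CpG and a GC share of 73%, Bhlhe23 had 19 CpG and 61.7%, and Gid8 had 37 CpG and 65%. The median of the 32851 such windows in the RefSeq table was 7 CpG and 52.7% GC, and 93% of them held fewer CpG than Tcfl5 and 71.9% fewer than Bhlhe23. Ogfr, with 24 CpG, lay between the bHLH genes. RefSeq gave 3 start windows each for Dido1 and Gid8, with 3 to 38 and 3 to 43 CpG. Windows were found for 5 of the 7 genes, and Col9a3 and Slc17a9 were not matched. Of the 26 other genes that were nearly silent in WT and on in KO, as defined further on, 23 had a RefSeq window, and these had a median of 17 CpG in the window of highest count per gene, within a range of 1 to 46, against 8 over all 27025 genes with a window.

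The letters searched, on both strands, differed between the promoters of the bHLH genes. The GC box GGGCGG occurred 5 times in the window of Tcfl5 and 0 times in that of Bhlhe23, and 35.7% of all windows held it. The sequence CCAAT occurred 0 times in Tcfl5 and 2 times in Bhlhe23, and 37.4% of all windows held it. Each had 1 general E-box (CANNTG), found in 72.3% of windows, and 0 copies of its palindromic form CACGTG, a subset of CANNTG found in 7.15%. Both windows also held 0 matches to GCGGGAA, a letter string of E2F sites found in 4.6% of windows, and 0 to TATAAA, found in 13.6%. These matches describe letters only and show no binding.

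**Figure D1:**
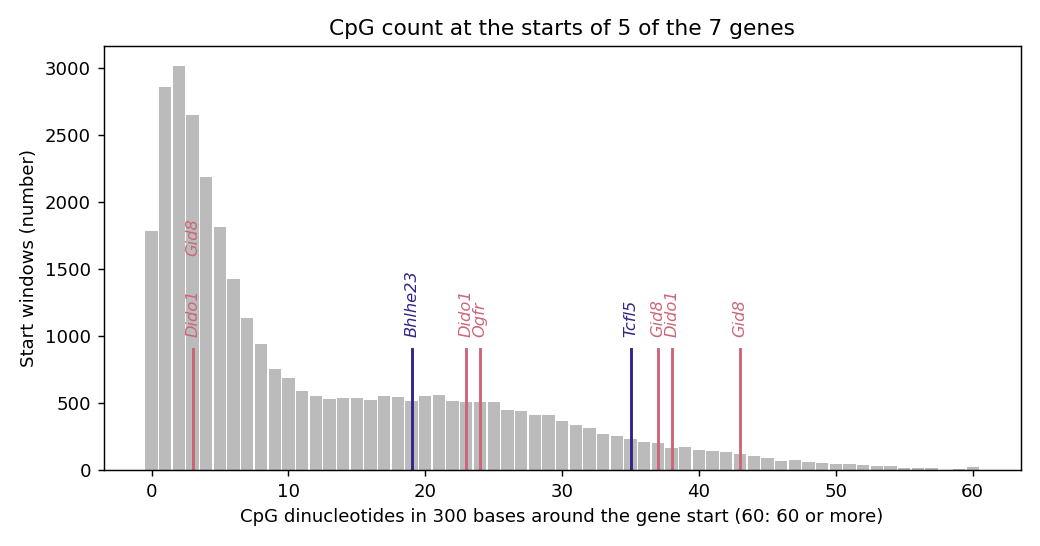
Number of RefSeq start windows (vertical axis) by the CpG dinucleotides they hold in 300 bases (horizontal axis). Grey bars are all 32851 windows and vertical lines the windows of 5 of the genes, of which Bhlhe23 has 19 and Tcfl5 35 CpG.

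Tcfl5 went from almost no reads in WT to a level per kb of exon near that of its neighbour Col9a3 in KO. It had 6, 1 and 0 counts in WT libraries 1, 2 and 3, and 201, 225 and 216 counts in KO libraries 1, 2 and 3. Scaled to library size, the WT mean was 0.119 ± 0.164 CPM (SD, n = 3) and the KO mean 10.9 ± 0.673 CPM (SD, n = 3). The groups lay far apart, and WT library 1 held 6 of the 7 WT reads. The ratio of counts per library size was 90.5 (exact binomial 95% interval 43.7 to 226, counting error only), and 419 (75.0 to 16586) without WT library 1, which leaves 1 WT read. The fitted log2 fold change was 6.43 (SE 0.337), a value that depends on the prior count of the fit when WT reads are this few. The 3 KO libraries differed little among themselves, from 10.2 to 11.6 CPM.

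Bhlhe23 showed the same pattern at a lower level. It had 1 count in each WT library and 64, 90 and 74 counts in the KO libraries, or 0.0518 ± 0.000681 CPM against 3.88 ± 0.697 CPM (mean ± SD, n = 3 each). Every KO library lay above every WT library. With 3 WT reads in all, the ratio of 75.0 has a counting interval of 25.3 to 366, which overlaps that of Tcfl5. The fitted log2 fold change was 6.06 (SE 0.378), with the same limit. KO library 2 was the highest for both genes and KO library 1 the lowest, over 3 libraries.

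Of the 7 genes these 2 were called higher in KO, both by over 2-fold, and the same 2 were those whose groups did not overlap. Over all tested genes 6.95% were called in either direction by edgeR's quasi-likelihood test (Benjamini-Hochberg adjusted p under 0.05), 5.90% higher in KO and 1.05% lower. At least 2-fold higher and called were 2.09%, and 14.0% had every KO library above every WT library. Since the pair was picked for this difference, its share among the 7 says nothing further.

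The neighbours with solid counts had nearly the same level in both groups. Dido1, the gene next to Tcfl5 on the side of Bhlhe23, had 1699, 1883 and 1783 counts in WT and 1891, 1780 and 1755 in KO, or 92.6 ± 5.88 and 92.4 ± 3.74 CPM. The KO mean minus the WT mean was -0.219% of the WT mean (SE of the log2 fold change 0.0643), and the groups overlapped. Gid8, across the shared promoter, had 743, 636 and 685 counts in WT and 749, 738 and 741 in KO. That is 35.6 ± 2.33 and 37.9 ± 0.311 CPM, a log2 fold change of 0.09 (SE 0.0710). The KO values of Gid8, 37.6 to 38.2 CPM, sat at the top of the WT range of 33.2 to 37.9 CPM and overlapped it.

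On the other side of Tcfl5, Col9a3 had 245, 236 and 230 counts in WT and 243, 255 and 259 in KO. Its level was 12.3 ± 0.265 CPM in WT and 12.9 ± 0.433 CPM in KO, a log2 fold change of 0.07 (SE 0.0926). The groups overlapped. Col9a3 shares its last 234 bases with Tcfl5, and how reads from that stretch were counted is not known. The level of Col9a3 therefore cannot show whether reads of Tcfl5 were counted for it. Ogfr, the first gene of the stretch, had 832, 778 and 840 counts in WT and 752, 818 and 874 in KO, or 42.3 ± 1.54 and 41.6 ± 3.03 CPM. Its log2 fold change was -0.02 (SE 0.0720) and its KO libraries lay on both sides of the WT values. For scale, the median absolute log2 fold change over all tested genes was 0.117 and the median SE 0.0983.

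Slc17a9, the gene before Bhlhe23, was too scarce for a close reading. It had 9, 9 and 12 counts in WT and 22, 9 and 16 in KO, or 0.518 ± 0.0926 and 0.799 ± 0.329 CPM. The groups overlapped, and KO library 2, the highest for Tcfl5 and Bhlhe23, was the lowest for Slc17a9 within KO. Its log2 fold change of 0.62 had an SE of 0.375, and the ratio of counts was 1.55 (exact binomial 95% interval 0.958 to 2.53). The interval includes a ratio of 1 and covers counting error only.

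**Figure D2:**
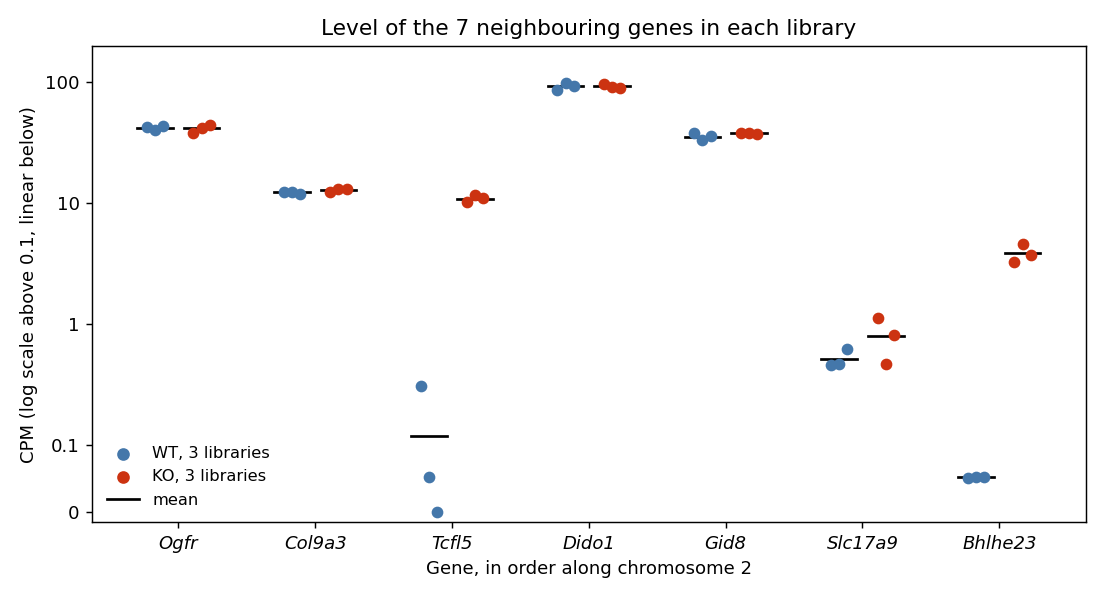
CPM scaled with TMM (vertical axis, log scale above 0.1 and linear below) of each of the 7 genes in their order on the chromosome (horizontal axis). Points are libraries, 3 WT in blue and 3 KO in red, and black lines are group means. The groups stand apart for Tcfl5 (0 to 0.306 against 10.2 to 11.6 CPM) and Bhlhe23 and overlap for the other 5.

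Per kb of exon, the order of levels changed in the lower ranks. In WT it ran Ogfr at 16.4 CPM per kb, Gid8 at 14.4, Dido1 at 6.96, Col9a3 at 3.18, Slc17a9 at 0.162, Tcfl5 at 0.0377 and Bhlhe23 at 0.0205. In KO it ran Ogfr at 16.1, Gid8 at 15.4, Dido1 at 6.94, Tcfl5 at 3.45, Col9a3 at 3.35, Bhlhe23 at 1.54 and Slc17a9 at 0.25 CPM per kb. Thus in KO the level of Tcfl5 (3.24 to 3.66) could not be told from that of Col9a3 (3.22 to 3.41), and Ogfr (14.9 to 17.2) could not be told from Gid8 (15.3 to 15.5), while Bhlhe23 (1.29 to 1.84) kept apart from Col9a3 and from Slc17a9 (0.145 to 0.351). In WT, Tcfl5 (0 to 0.0966) and Bhlhe23 (0.0202 to 0.0207) overlapped. Among tested genes with a known exon length, 43.3% had a lower KO level per kb than Tcfl5 and 27.9% a lower one than Bhlhe23, against 0.172% and 0.0892% in WT. Both genes passed the filter through their KO counts, so their low rank in WT among tested genes is set by the filter.

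The stretch that defined the choice, 180.5 to 180.9 Mb, overlaps 18 annotated genes, and 11 of them are not among the 7. Among these, 2.94 kb before Ogfr, Mrgbp, a subunit of a histone acetyltransferase complex, had 27.9 ± 0.944 CPM in the WT libraries and 26.2 ± 1.17 CPM in the KO libraries (log2 fold change -0.09, SE 0.0759, adjusted p = 0.549, edgeR's quasi-likelihood test). On the far side the nearest tested gene was Gm27032, a long noncoding RNA that begins at the miRNA gene Mir124a-3, 117 kb past Bhlhe23. Its level was 13.7 ± 0.828 CPM (WT) and 12.7 ± 1.45 CPM (KO) (log2 fold change -0.10, SE 0.107, adjusted p = 0.654, edgeR). Ntsr1, the neurotensin receptor gene at the edge of the stretch, had 334 counts over WT and 367 over KO. It is named after its value was seen. The other 8 were below the filter, and 3 of those had 0 counts in every library.

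Between Bhlhe23 and Gm27032 lie noncoding genes with a handful of reads each. Gm14340, 41.4 kb past Bhlhe23, had 2, 1 and 2 counts in WT and 10, 5 and 6 in KO, and the groups did not overlap, as in 25.2% of all tested genes. Its ratio of counts was 4.15 (exact binomial 95% interval 1.52 to 14.1), and with no filter on low counts its adjusted p was 0.102 in edgeR's quasi-likelihood test. Gm14342 had 14 counts in WT and 23 in KO, Gm14339 had 1 and 6, and Gm14344 had 1 and 4. Gm14343, which overlaps Bhlhe23, had 0 in WT and 2 in KO, so few of the reads from this locus were assigned to it. These 5 genes are named after their values were seen, and a few reads each cannot show whether they moved with Bhlhe23.

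Within 1 Mb on either side, 82 further genes were annotated and 50 could be tested, and 5 of these rose (10.0%, against 5.90% of all tested genes) and 0 fell. Hrh3, the histamine H3 receptor, rose from 45.2 ± 4.84 to 84.6 ± 4.40 CPM, a log2 fold change of 0.90 (SE 0.0771, adjusted p = 3.29e-06, edgeR). Zbtb46, a zinc finger factor known from dendritic cells, rose from 11.1 ± 0.885 to 19 ± 1.49 CPM, a log2 fold change of 0.77 (SE 0.1, adjusted p = 0.000180, edgeR). Sox18, a factor of vessel development, rose from 7.88 ± 0.511 to 12.9 ± 2.45 CPM, a log2 fold change of 0.71 (SE 0.137, adjusted p = 0.00487, edgeR). Lama5, a laminin chain of basement membranes, rose from 22.3 ± 2.74 to 29.0 ± 2.65 CPM and Oprl1, the nociceptin receptor, from 53.7 ± 2.48 to 64.2 ± 1.99 CPM (adjusted p = 0.0372 and 0.0214, edgeR). All 5 had every KO library above every WT library, and their WT levels were 1.31 CPM per kb or more, against 0.0377 for Tcfl5 and 0.0205 for Bhlhe23.

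The calls of Lama5 and Oprl1 were lost when any of 4 libraries was left out, with folds near those over all 6 libraries in most of these fits. The log2 fold change of Oprl1 was 0.26 over all 6 and 0.23 to 0.28 in the 4 fits. That of Lama5 was 0.38 over all 6, 0.28 without WT library 1, 0.30 without KO library 1, 0.42 without KO library 2 or 3 and 0.38 with a replicate block. The adjusted p of Lama5 (edgeR's quasi-likelihood test) was 0.138 without WT library 1, 0.162 without KO library 1, 0.0571 without KO library 2 and 0.0732 without KO library 3. With the block it was 0.0552. That of Oprl1 was 0.0521 without WT library 2, and 0.0996, 0.0920 and 0.0587 without KO libraries 1, 2 and 3 (edgeR). The count of rises was then 3 without any 1 of the KO libraries. The count of falls was 0 in edgeR, DESeq2 and limma-voom. An unadjusted p under 0.05 in edgeR was found for 11 of the 50 genes, 8 of them higher in KO. The share of all tested genes at that unadjusted level is not given here, so this count cannot be read as an excess.

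Of the 5 genes that rose, Lama5 lay 363 kb and Hrh3 485 kb before Ogfr, while Zbtb46, Sox18 and Oprl1 lay 611, 893 and 938 kb past Bhlhe23. Within 0.25 Mb, 10 genes were tested and 0 were called by edgeR, DESeq2 or limma-voom, and 1 had an unadjusted p under 0.05 in edgeR and in limma-voom and 0 in DESeq2. At the 6.95% called over all genes, a count of 0 in 10 genes sets them apart in no way. The gene with the unadjusted p under 0.05 was Slco4a1, an organic anion transporter gene, with 1.92 ± 0.208 CPM (WT) and 1.26 ± 0.322 CPM (KO, adjusted p = 0.169, edgeR, named after its value was seen). The median log2 fold change was -0.08 over these 10 genes and -0.02 over the 50, against -0.01 over all tested genes. Among these 50 the highest log2 fold change was the 0.90 of Hrh3, beside 6.43 for Tcfl5 and 6.06 for Bhlhe23.

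**Figure D3:**
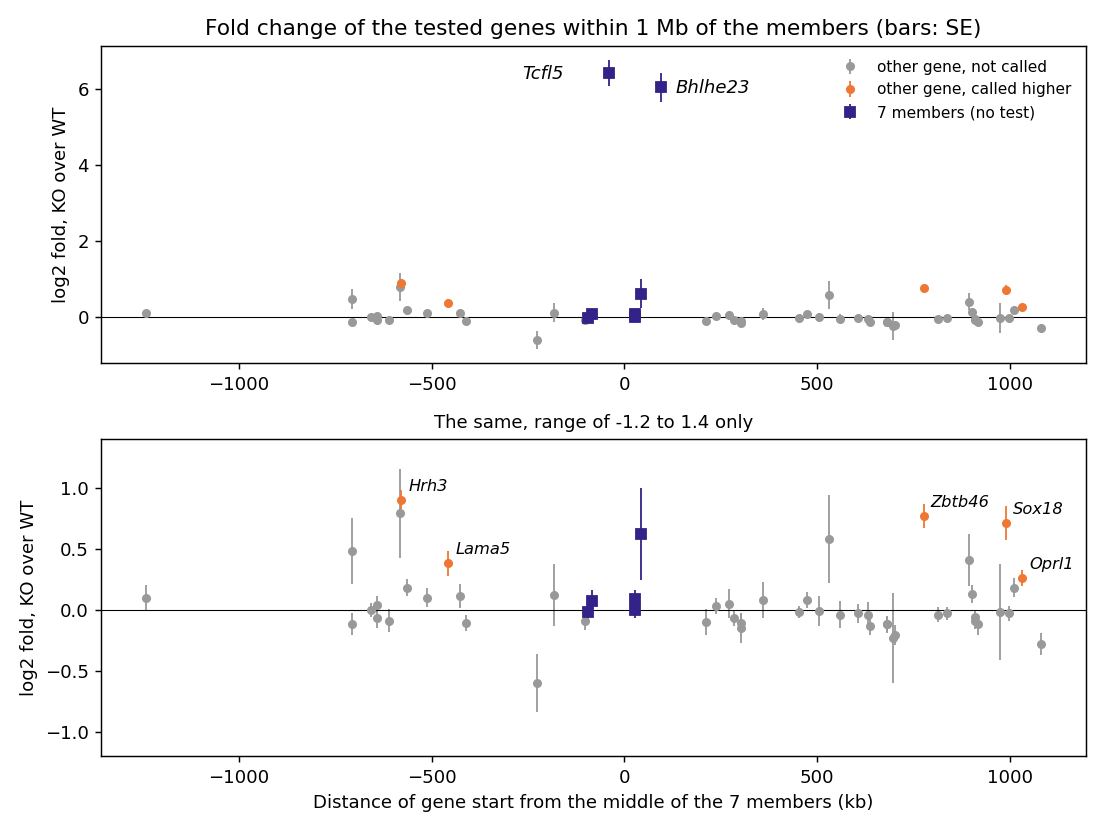
Log2 fold change of KO over WT (vertical axis) of the genes tested within 1 Mb, by the distance of the gene start from the middle of the 7 genes in kb (horizontal axis). Bars are SE, dark blue squares the 7 genes, orange points the 5 other genes called higher and grey points the rest. The upper panel shows the full range, with Tcfl5 at 6.43 and Bhlhe23 at 6.06, and the lower panel the values near 0, where the highest point is Hrh3 at 0.90.

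Tcfl5 and Bhlhe23 belong to 28 genes that had a WT mean under 0.2 CPM and a KO mean of at least 1 CPM. This class was drawn from the same comparison and is described without a test. Only 4 of the 28 lay within 250 kb of another of the kind. They were Tcfl5 with Bhlhe23, at 134 kb and with 3 tested genes between them, and Nxnl1 with Tmem221 on chromosome 8, which are next to each other at 7.73 kb between starts. Zar1 and Slc10a4 on chromosome 5 followed at 426 kb, and C1ql4 and Aqp5 on chromosome 15 at 503 kb.

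The neighbours of these genes were compared with those of the bHLH pair. The nearest tested genes on either side of Tcfl5 and Bhlhe23 were Col9a3, Dido1, Slc17a9 and Gm27032, with log2 fold changes of 0.07, near 0, 0.62 and -0.10. Around the other 26 genes the nearest tested genes numbered 50, leaving out members of the class, and 6 of them rose (12.0%, against 5.90% of all tested genes) and 0 fell (against 1.05%) in edgeR's quasi-likelihood test. DESeq2 gave 6 and 0 and limma-voom 5 and 0. In edgeR 11 of the 50 had an unadjusted p under 0.05, 2 of them lower in KO. This count too has no share over all tested genes beside it and cannot be read as an excess. Leaving out 1 library gave 4 to 6 rises, the 4 without KO library 1, and 1 fall without WT library 3. Their median absolute log2 fold change was 0.11, against 0.117 over all tested genes.

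**Figure D4:**
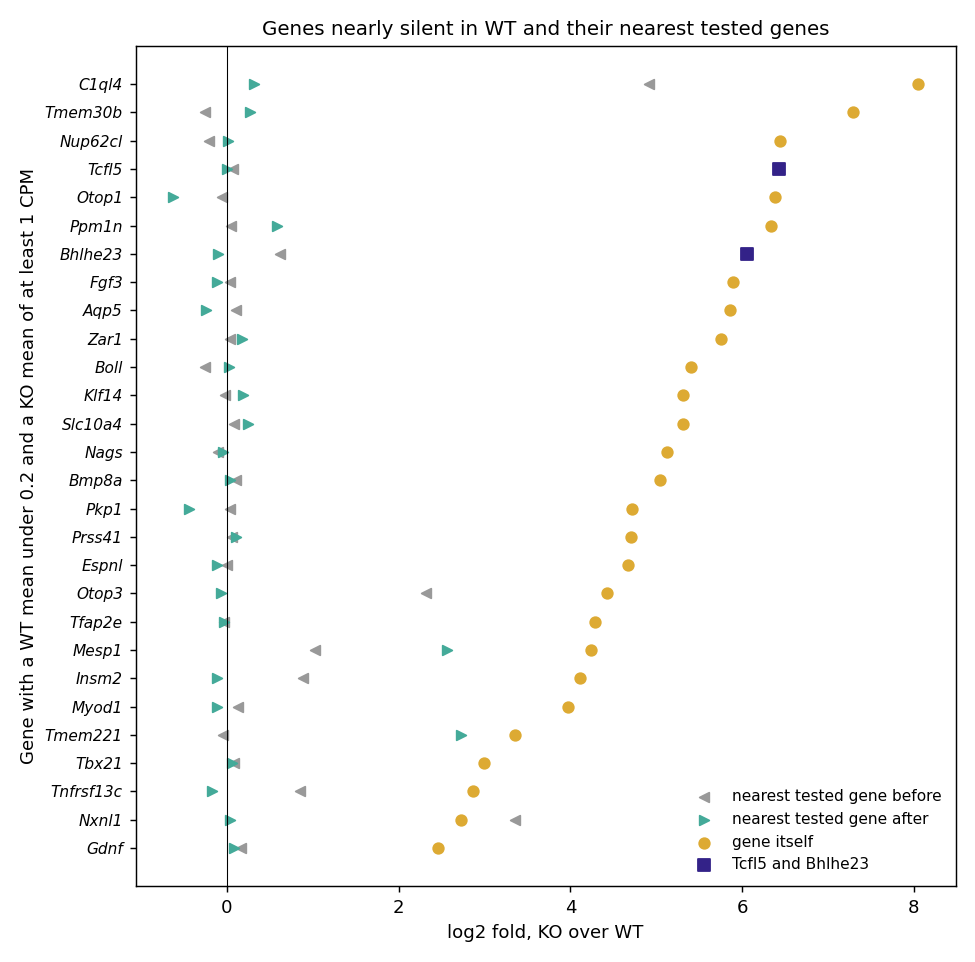
Log2 fold change of KO over WT (horizontal axis) for the 28 genes with a WT mean under 0.2 and a KO mean of at least 1 CPM (vertical axis, ordered by their own fold). Circles are the genes, squares Tcfl5 and Bhlhe23, and triangles the nearest tested gene before and after each. Most triangles lie near 0, with a median absolute value of 0.11 around the other 26 genes.

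The genes most like Tcfl5 and Bhlhe23 over the 6 libraries were found by their levels, so they resemble them in WT and KO level by construction. Likeness was the Euclidean distance between the 6 values of log2(CPM + 0.5), over 14323 genes. For Bhlhe23 the nearest were Nags, which makes the activator of the urea cycle (distance 0.375), the oocyte gene Zar1 (0.407), the phosphatase gene Ppm1n (0.488), the zinc finger gene Klf14 (0.489) and the water channel gene Aqp5 (0.516). For Tcfl5 they were Nup62cl (1.13), C1ql4 (1.49), Ltbp2 (1.52), Kremen2 (1.79) and Bmp8b (1.85). C1ql4 encodes a secreted protein of synapses, Ltbp2 a protein of the extracellular matrix, Kremen2 a receptor of WNT inhibitors and Bmp8b a growth factor. The distance between Tcfl5 and Bhlhe23 themselves was 2.49. None of these matched genes lies on chromosome 2. The share of the 14323 genes on that chromosome is not given here, so this shows nothing about position.

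Markers of the cells in which Tcfl5 and Bhlhe23 normally act were mostly at or near 0 in both groups. Of 9 spermatocyte genes, 5 had 0 counts in every library (Sycp1, Stra8, Tex101, Hormad1 and Ldhc), among them defining genes of meiosis. The sum of the 9 was 2.51 to 2.97 CPM over the WT libraries and 3.04 to 4.28 CPM over the KO libraries, without overlap. Dmc1 and Sycp3, both genes of meiosis, could be tested, and 0 were called by edgeR, DESeq2 or limma-voom, with 0 at an unadjusted p under 0.05 in each. Dmc1 had 107 counts over WT and 109 over KO, and Sycp3 34 and 53. The other listed genes with reads were below the filter and had more counts over KO than over WT. With no filter on low counts, 4 of the list could be tested in edgeR. Of these, 0 were called and 1 had an unadjusted p under 0.05.

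Of 8 retinal bipolar genes, Otx2 and Prdm8 could be tested, and 0 were called by edgeR, DESeq2 or limma-voom, with Prdm8, lower in KO, the 1 at an unadjusted p under 0.05 in each. The sum of the 8 was 33.6 to 41.1 CPM over WT and 30.7 to 36.9 CPM over KO, nearly all of it Prdm8. Defining genes of bipolar cells had traces of reads. Grm6, the glutamate receptor of ON bipolar cells, had 0 counts in WT and 2 in KO, and Trpm1, the channel it controls, 1 and 7. Vsx1, a factor of cone bipolar cells, had 2 and 11 counts. The 228 KO counts of Bhlhe23 stand beside these values, and what part such cells had in them was not tested.

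Some lists for other cells of the tissue were higher in KO without overlap of their summed level. The 6 astrocyte genes summed to 2252 to 2639 CPM in WT and 2716 to 2767 in KO, with Gfap called. Of these 6, 3 had an unadjusted p under 0.05 in edgeR, 0 of them lower in KO. Aldh1l1 and Gja1 had log2 fold changes of 0.02 and 0.01, and the groups overlapped for both and for Aldoc. The 6 oligodendrocyte genes gave 4941 to 5360 and 5501 to 6190 CPM, with Mbp called, though its adjusted p was 0.0564 without KO library 2 and 0.107 without KO library 3 (edgeR). The 6 genes of choroid plexus and ependyma gave 39.5 to 57.5 and 73.2 to 133 CPM, with Kl called, the only one of the 6 whose groups did not overlap (20.4 to 23.0 and 55.1 to 61.8 CPM). Foxj1 and Ccdc153, genes of ciliated ependyma, had log2 fold changes of -0.05 and 0.02. Ttr, the most abundant transcript of choroid plexus, had 374, 114 and 139 counts in WT and 1155, 31 and 1103 in KO, so that KO library 2, the highest for Tcfl5 and Bhlhe23, was the lowest for Ttr. The 6 genes of habenula and thalamus gave 41.3 to 47.1 and 57.1 to 59.4 CPM, with Chrna3 and Prkcd called. Prkcd made up most of that sum (31.5 to 37.7 and 44.9 to 47.9 CPM), while Tac2 and Tcf7l2 had log2 fold changes of -0.08 and -0.12 and were not called. None of these markers was at 0 in every library. Sums for principal neurons, interneurons, oligodendrocyte precursors, microglia and vascular cells overlapped. Of the 8 principal neuron genes 1 was called higher and 1 lower, against 5.90% and 1.05% of all tested genes. Among the 7 vascular genes Pdgfrb was called higher, with an adjusted p of 0.201 without KO library 3 (edgeR). Microglia sums overlapped narrowly (253 to 290 and 289 to 327 CPM). Of these 6 genes 4 had an unadjusted p under 0.05 in edgeR, 0 of them lower in KO, and 0 were called. No share over all tested genes is given beside the unadjusted counts of these lists, so they cannot be read as an excess. The part of these cells in the levels of Tcfl5 and Bhlhe23 was not tested.

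Col9a3 can be set beside the other chains of its collagen, which are encoded elsewhere. Type IX collagen is a trimer of 3 chains, and of its genes Col9a2 rose from 3.14 ± 0.510 to 13.2 ± 1.13 CPM, a log2 fold change of 2.07 (SE 0.142, adjusted p = 4.03e-07, edgeR). Col9a1 had 0.567 ± 0.303 and 0.374 ± 0.205 CPM (adjusted p = 0.558, edgeR). Of the 8 cartilage genes listed, 7 were tested and only Col9a2 was called, and Matn3 was at 0 in every library. Their sum overlapped, at 107 to 135 CPM (WT) and 130 to 142 CPM (KO).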

How the data were processed

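Gene counts as deposited by the authors were used, raw whole numbers per library for 48795 Ensembl identifiers, of which 360, with 0.0512% of counts, were not in GENCODE M21. Per the submitters' processing notes, the tools were cutadapt 1.18, HISAT2 and HTSeq 0.11.1 on GRCm38. Sources used here do not state the HISAT2 version, the annotation release or the strand setting of the counting. Positions and exon lengths came from GENCODE M21 and promoter windows from RefSeq.

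Genes were filtered with filterByExpr (minimum count 10, minimum total 15), scaled with TMM and tested with edgeR's quasi-likelihood test, group as the only term, with Benjamini-Hochberg adjustment over all 16861 genes and a threshold of 0.05. The SE is the log2 fold change over the square root of F. CPM uses the TMM-scaled library size, and ratios of counts carry exact binomial intervals that cover counting error only. The test was checked on simulated data with 200 changed genes. Also tried were DESeq2, limma-voom, scaling by RLE or by library size only, other filters, thresholds and windows, a replicate block and leaving out each library. Named genes were the 7 members, genes past the threshold within 1 Mb, the nearest tested genes, and the 5 most like Tcfl5 and Bhlhe23. The members and lists were chosen with earlier results of these data known. The value of 1 listed marker gene is not reported here. Software was R 4.3.3, edgeR 4.0.16, limma 3.58.1 and DESeq2 1.42.0.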

Additional observations from a re-analysis of the deposited data

How the results depend on the processing

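Every alternative that was run kept Tcfl5 and Bhlhe23 far above the other 5 genes. The log2 fold change of Tcfl5 ran from 5.87 to 8.39 when 1 library was left out, the highest without WT replicate 1, which held 6 of its 7 WT reads. That of Bhlhe23 ran from 5.92 to 6.17 and was 5.64 in limma-voom. Without 1 library Ogfr ran from -0.07 to 0.03, Col9a3 from 0.05 to 0.10, Dido1 from -0.05 to 0.04, Gid8 from 0.04 to 0.14 and Slc17a9 from 0.30 to 0.89. Slc17a9 was absent from the fit that asked for at least 1 CPM in 3 libraries. The count of other genes that rose within 1 Mb was 3 to 5 without 1 library, 3 at a threshold of 0.01, 2 within 0.5 Mb and 0 within 0.25 Mb, where 10 genes were tested. The count that fell was 1 at a threshold of 0.1 and 0 without any 1 library. Over the whole table, rises numbered 676 to 1101 without 1 library and 614 at a threshold of 0.01. Falls numbered 48 to 323 without 1 library, 279 with no filter, 47 at 0.01 and 395 at 0.1. The causes were not tested.

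Libraries of the same replicate number did not deviate together (correlations of 0.00465, -0.00921 and -0.0240). The highest values were 0.126 for WT 1 with KO 3, 0.113 for WT 2 with KO 1 and 0.128 for WT 3 with KO 2. With 3 libraries per group such values cannot show whether libraries were paired. With a replicate block 960 genes rose and 149 fell over the whole table, 4 rose within 1 Mb, and the fold changes were 6.43 for Tcfl5 and 6.06 for Bhlhe23. Depth limits the WT levels of both, which rest on 7 and 3 reads, and the comparison of Slc17a9.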

Other observations

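The 6 genes that rose beside other members of the class of 28 are named after their values were seen. Otop2, a proton channel gene 2.43 kb from its relative Otop3, rose from 0.448 ± 0.13 to 2.26 ± 0.164 CPM (adjusted p = 7.04e-05, edgeR's quasi-likelihood test). Mesp2, a bHLH gene of the early mesoderm 16.9 kb from its relative Mesp1, rose from 0.397 ± 0.198 to 2.37 ± 0.324 CPM (adjusted p = 9.42e-05, edgeR). Prph, which encodes the intermediate filament peripherin, lies 25.1 kb from C1ql4 and rose from 1.89 ± 0.471 to 57.5 ± 2.91 CPM (adjusted p = 2.28e-11, edgeR). Rtn2 beside Ppm1n rose from 67.2 ± 5.85 to 101 ± 6.42 CPM (adjusted p = 0.000132, edgeR). Spats2 beside C1ql4 and Fryl beside Slc10a4 rose by log2 fold changes of 0.32 and 0.25 (adjusted p = 0.0127 and 0.0456, edgeR). Without KO library 1 the adjusted p of Spats2 was 0.0793. That of Fryl was 0.169 and 0.0745 without WT libraries 1 and 3, and 0.145, 0.0903 and 0.192 without KO libraries 1, 2 and 3 (edgeR). The difference between these neighbours and those of Tcfl5 and Bhlhe23 was not tested.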
